A study of Mus musculus with 6 samples.

Results

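The cytosolic ribosomal protein genes were examined as a group in mouse embryonic stem (ES) cells that were moved from serum to 2i+vitC medium. Members were all genes with a name of the form Rpl or Rps and a number, with or without a final a, l or x, together with Rplp0, Rplp1, Rplp2 and Rpsa, and they numbered 79 of the 12626 genes in the files. They comprised 41 genes of the large subunit, 30 of the small subunit, 3 of the stalk (Rplp0, Rplp1 and Rplp2) and 5 paralogs (Rpl3l, Rpl10l, Rpl39l, Rps4l and Rps27l). The group is not complete, since names such as Rpl26 and Rpl30 were not listed in the files. The rule goes by name and uses no measured value, though it was set with earlier results of these data known. All 79 members were listed with a value in each sample.

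All samples were J1 wild-type ES cells, a male line, grown without feeder cells on gelatin and in the presence of LIF. The medium named 2i+vitC contains vitamin C, an inhibitor of Gsk3 and an inhibitor of MEK, and lacks serum, and it is known for extensive loss of DNA methylation. Poly(A) RNA was sequenced in cells kept in serum (D0) and in cells at day 6 (D6) and day 13 (D13) of conversion, with 2 biological replicates per day. As serum cells were not sampled again at later days, time in culture and medium cannot be told apart. Of 12 ES cell markers, among them Pou5f1, Sox2 and Nanog, 12 were above 1 CPM on each of the 3 days. At D0, 4 of 4 detected trophoblast markers also passed this cut, so it does not settle identity. The ES cell markers moved in both directions. Lin28a was at 652 and 451 CPM at D0 and at 17.0 to 52.8 CPM later, and Nanog at 189 and 216 CPM at D0 and at 477 to 812 CPM later.

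Ribosomal proteins assemble with ribosomal RNA in the nucleolus into a small and a large subunit, which together translate mRNA. Their mRNAs are short, abundant and carry a 5′ terminal oligopyrimidine (TOP) tract, through which the mTOR pathway controls their translation, and the proteins are made in nearly equal amounts since a ribosome holds a single copy of most of them. Several members have paralogs with restricted expression: Rpl10l and Rpl39l are autosomal copies of the X-linked Rpl10 and Rpl39 and are best known from the testis, Rpl3l is known from heart and skeletal muscle, and Rps27l is known as a p53-inducible copy of Rps27.

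The paralogs Rpl10l and Rpl39l carried the largest changes of the group, and the regions upstream of their transcription start are therefore shown beside those of their parent genes, in the build GRCm38.p6 and from RefSeq. Each sequence runs 5′ to 3′ on the strand of the gene, from 130 bases before to 20 bases after the start, and capitals mark CpG sites, the sites of DNA methylation. Methylation itself was not measured in the data analysed here.
Rpl10l, chr12:66284382-66284531, minus strand: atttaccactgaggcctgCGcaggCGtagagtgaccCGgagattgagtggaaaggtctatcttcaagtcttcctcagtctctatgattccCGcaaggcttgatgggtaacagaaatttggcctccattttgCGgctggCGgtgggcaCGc
Rpl10, chrX:74270686-74270835, plus strand: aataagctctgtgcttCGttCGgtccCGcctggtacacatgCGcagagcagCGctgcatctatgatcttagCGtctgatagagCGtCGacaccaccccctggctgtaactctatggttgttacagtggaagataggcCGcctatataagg
Rpl39l, chr16:10170098-10170247, plus strand: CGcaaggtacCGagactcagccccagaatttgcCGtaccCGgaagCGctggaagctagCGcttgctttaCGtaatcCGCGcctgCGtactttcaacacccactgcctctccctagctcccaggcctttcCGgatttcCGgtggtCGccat
Rpl39, chrX:37085203-37085352, minus strand: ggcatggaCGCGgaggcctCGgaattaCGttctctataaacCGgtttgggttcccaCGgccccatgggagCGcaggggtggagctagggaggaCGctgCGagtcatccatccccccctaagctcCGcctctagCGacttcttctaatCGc

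The printed stretch holds 7 CpG sites for Rpl10l, 9 for Rpl10, 13 for Rpl39l and 12 for Rpl39. Over the whole 300 bases that RefSeq gives around each start (250 before and 50 after), Rpl10l had 13 CpG sites, and Rpl39l, Rpl10 and Rpl39 had 17 each. Such a sequence was at hand for 59 of the 79 members. Their median was 21 CpG sites, ranging from 3 (Rpl3l) to 39, beside a median of 22 over the 9095 genes of the files with a sequence. A short form of the TOP tract, CTT followed by any pair of C and T, was searched on the strand of the gene and was present within 10 bases of the start in 22 of the 59 members (37.3%) and in 13.1% of the 9095 genes. Within the 50 bases after the start it was present in 44 of the 59 members (74.6%) and in 25.6% of the 9095 genes. A match of these letters is a description of the sequence and not a mapped start.

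Replicate 1 of D13 stood apart from the other 5 samples for this group, which bears on each comparison with D13. Over the 74 members that are no paralogs, the median log2 CPM (CPM, reads scaled to the size of the library, as normalized by the authors) was 9.22 and 9.18 in the replicates of D0, 9.44 and 9.27 at D6, then 10.33 and 9.53 at D13. Thus 5 samples lay between 9.18 and 9.53, and D13 replicate 1 lay above all of them. All 79 members were higher in replicate 1 than in replicate 2 of D13, with a median difference of 0.79 on the log2 scale, whereas 33 of 79 were higher in replicate 1 at D0 (median difference -0.05) and 71 of 79 at D6 (0.15). The median difference over all genes was 0.01 at D13. For comparison, 460 other genes had 555 to 2049 bases of annotated exons and a mean log2 CPM of at least 6.45, with no upper limit of level. They differed by a median of 0.44 between the replicates of D13, 0.31 between those of D0 and -0.002 between those of D6. The 77 mitochondrial ribosomal protein genes differed by 0.39, 0.28 and -0.02. The part of transcript length and level in this difference was not tested, and comparisons with D13 whose call, direction or size depends on this replicate are also given without it. It held 74559540 reads on genes, among 73230745 to 83688345 in the 6 samples.

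**Figure D1:**
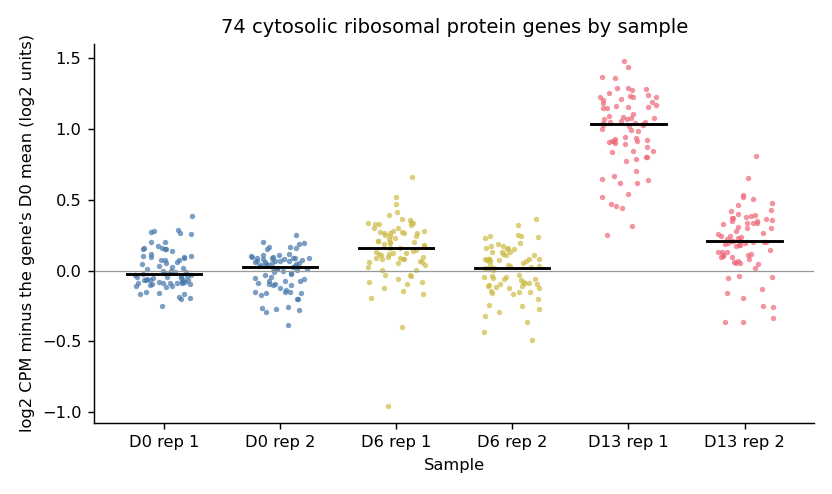
Points show 74 ribosomal protein genes (no paralogs) in each of the 6 samples, as log2 CPM minus the mean of the gene at D0 (vertical axis, log2 units), and black lines show the median of each sample. Medians lie between -0.02 and 0.21 in 5 samples and at 1.03 in D13 replicate 1.

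The share of all gene reads that fell on the 79 members was 5.08% and 5.58% in serum, 6.07% and 5.36% at D6, then 9.82% and 6.13% at D13. The replicates of D0 and D6 overlapped, and both replicates of D13 lay above those of D0 and D6, the second by little. Means were 5.33% ± 0.35 (SD, n = 2), 5.71% ± 0.50 (SD, n = 2) and 7.98% ± 2.61 (SD, n = 2). With 2 replicates per day, a two-sided exact permutation test cannot give a p below 0.333, which was the value for D0 against D13 and for D6 against D13, beside 0.667 for D0 against D6. Large subunit genes took 2.74% of reads at D0, small subunit genes 2.18% and stalk genes 0.358%, while the paralogs took 0.0474% at D0 and 0.102% at D6. In these bulk samples, fewer cells expressing a gene and less RNA per cell cannot be told apart.

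From D0 to D6, the cytosolic ribosomal protein genes other than paralogs stayed within a narrow range. In a limma fit over all 12928 genes and transposon families, 2 of 79 members were higher at D6 than at D0 and none was lower at an adjusted p under 0.05 (Benjamini-Hochberg), while 13.7% of all rows were higher and 10.2% lower. Both were paralogs, Rpl39l and Rpl10l. None of the 74 other members passed, also at an unadjusted p under 0.05 (35.5% of all rows), and their log2 fold changes ranged from -0.62 (Rpl34) to 0.51 (Rps29) with a median of 0.09. The spread in this fit was estimated over all 6 samples, so the distance between the replicates of D13 also entered these calls. The interquartile range of these 74 members was -0.02 to 0.19, beside -0.43 to 0.48 over all rows. Both replicates of D6 lay above both of D0 in 28 of 79 members (34% of all rows) and below both in 7 of 79 (34.4% of all rows).

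Rpl39l rose most of all members. Its log2 CPM was 3.33 and 3.50 at D0, 7.22 and 7.13 at D6, then 7.88 and 7.12 at D13, corresponding to 791 and 987 reads at D0 and to at least 10453 in each later sample. The 4 samples in 2i+vitC thus lay far above both samples in serum, and D6 and D13 overlapped. The rise from D0 to D6 was 3.76 on the log2 scale (SE 0.27, limma adjusted p = 5.4e-05), or 13.6-fold. From D0 to D13 it was 4.09 (SE 0.27, limma adjusted p = 2.4e-05), and 3.71 without D13 replicate 1 (limma adjusted p = 0.0011). Rpl39l lies at chr16:10170226-10174911 on the plus strand.

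Rpl10l behaved alike, with log2 CPM of 4.20 and 4.65 at D0, 7.47 and 7.52 at D6, then 7.97 and 7.04 at D13. Again both serum samples were below all 4 samples in 2i+vitC, and D13 spread to both sides of D6. Reads numbered 1452 and 2190 at D0 and between 9877 and 17864 later. The log2 fold change between D0 and D6 was 3.07 (SE 0.31, limma adjusted p = 0.00024), or 8.39-fold, and from D0 to D13 it was 3.08 (SE 0.31, limma adjusted p = 0.00015), or 2.61 without D13 replicate 1 (limma adjusted p = 0.0020). Rpl10l lies at chr12:66283379-66284401 on the minus strand. These 2 genes were also those that passed the 4-fold minimum of the study, from D0 to D6 and from D0 to D13, while 5.95% and 7.39% of all rows passed it upward. They were above the mean of D0 and D13 at D6, by 1.72 for Rpl39l (SE 0.24, limma adjusted p = 0.0045) and 1.53 for Rpl10l (SE 0.27, limma adjusted p = 0.012), beside 5.61% of all rows upward and 3.26% downward, and no other member passed this contrast.

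The parent genes did not follow at D6. Rpl39 had a log2 CPM of 8.15 and 8.05 at D0, 8.37 and 8.15 at D6, then 9.10 and 8.53 at D13, and Rpl10 of 6.16 and 5.87, 5.96 and 5.86, and 6.64 and 6.08. At D6 both parents were within or next to their range at D0, with log2 fold changes of 0.16 (SE 0.25, limma adjusted p = 0.70) for Rpl39 and -0.11 (SE 0.25, limma adjusted p = 0.80) for Rpl10. Per kilobase of transcript, Rpl39l reached 0.0269 and 0.0324 of the level of Rpl39 at D0, 0.344 and 0.374 at D6, then 0.327 and 0.286 at D13. The level of Rpl10l per kilobase was 0.201 and 0.336 of that of Rpl10 at D0 and 1.52 to 2.48 in the later samples. Hence Rpl39l remained below its parent in all samples, and Rpl10l was listed below it in serum and above it in 2i+vitC. The level of Rpl10 itself is uncertain, since 91.6% of the stretches of 100 bases in its transcript also occur in transcripts of other genes, while Rpl39 shares 1.75% and Rpl10l and Rpl39l share none.

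**Figure D2:**
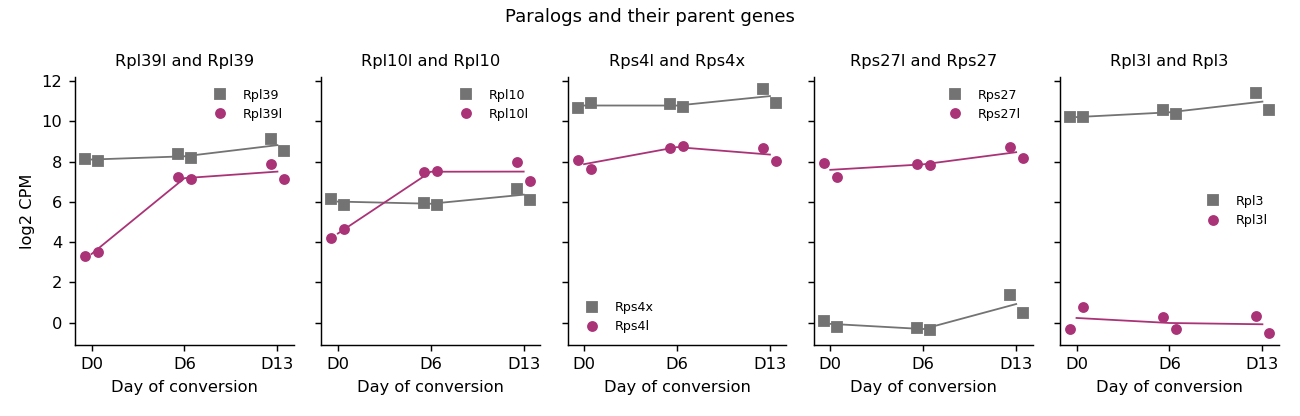
Each panel shows the log2 CPM (vertical axis) of a paralog (circles) and its parent gene (squares) in both replicates of D0, D6 and D13, with lines through the day means. Rpl39l and Rpl10l are below 4.7 in serum and above 7.0 in all samples in 2i+vitC, and Rpl3l stays below 0.8 throughout. Values are not per length, so that the distance between a paralog and its parent is not a ratio of levels.

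The other 3 paralogs differed from these. Rps4l, an autosomal copy of the X-linked Rps4x that GENCODE lists as a transcribed processed pseudogene, had a log2 CPM of 8.09 and 7.65 at D0, 8.68 and 8.76 at D6, then 8.67 and 8.02 at D13. Both samples of D6 were above all others, by a narrow margin over D13 replicate 1, and D13 overlapped with D0. The log2 fold change between D0 and D6 was 0.85 (SE 0.27) and missed the threshold (limma adjusted p = 0.055), but passed it without D13 replicate 1 (limma adjusted p = 0.026). Rps27l read 7.94 and 7.23 at D0, 7.90 and 7.83 at D6, then 8.74 and 8.19 at D13. D13 was above D0 and D6 in both replicates, and the log2 fold change between D0 and D13 was 0.88 (SE 0.29, limma adjusted p = 0.039), or 0.60 without D13 replicate 1 (limma adjusted p = 0.19). Rpl3l was close to the lower end of the data, with 53 to 148 reads per sample and a log2 fold change of -0.31 between D0 and D13 (SE 0.55, limma adjusted p = 0.67), or -0.73 without D13 replicate 1 (limma adjusted p = 0.43). Cdkn1a, the p53 target that encodes the cell cycle inhibitor p21, rose by 2.52 from D0 to D6 (SE 0.19, limma adjusted p = 7.1e-05) while Rps27l had a log2 fold change of 0.27 (SE 0.29, limma adjusted p = 0.56).

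From D6 to D13, 77 of 79 members had a higher mean at D13, and the median log2 fold change was 0.50, whereas that over all rows was -0.02. No member passed limma at an adjusted p under 0.05, while 1.39% of all rows were higher and 2.78% lower, and 7 members had an unadjusted p under 0.05 (24.8% of all rows). Both replicates of D13 were above both of D6 in 48 of 79 members (29.4% of all rows) and below both in 1 (31.3% of all rows), which was Rps4l. Without D13 replicate 1, 64 of 79 members had a higher mean at D13, the median of the members was 0.10, and none of the 12928 rows passed in this comparison, which is 0%, though 2 members had an unadjusted p under 0.05 (17.9% of all rows). Without D13 replicate 2, the median was 0.87, and 24 members passed upward (3.06% of all rows). The median of the members thus differed more between the 2 replicates of D13 than between the days.

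From D0 to D13, 11 of 79 members rose and none fell, beside 20.6% and 21.5% of all rows, and 27 had an unadjusted p under 0.05 (50.9% of all rows). The 11 were the paralogs Rpl39l, Rpl10l and Rps27l, the large subunit genes Rpl17, Rpl36a, Rpl37, Rpl22 and Rpl39, and the small subunit genes Rps29, Rps23 and Rps28. The median log2 fold change was 0.63 for large subunit genes, 0.61 for small subunit genes and 0.64 for the 3 stalk genes, so that both subunits had nearly the same median. Both replicates of D13 were above both of D0 in 55 of 79 members (33.7% of all rows) and below both in none (35.1% of all rows). Without D13 replicate 1, 3 members passed (15.5% of all rows passed upward and 15.6% downward), namely Rpl39l, Rpl10l and Rpl17, and the median was 0.21 (0.22 for large subunit, 0.21 for small subunit and 0.13 for stalk genes). Without D13 replicate 2, 65 members passed (21.5% of all rows passed upward), with a median of 1.04. Compared with the 11 in all samples, fewer members passed when any of the other 4 samples was left out.

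**Figure D3:**
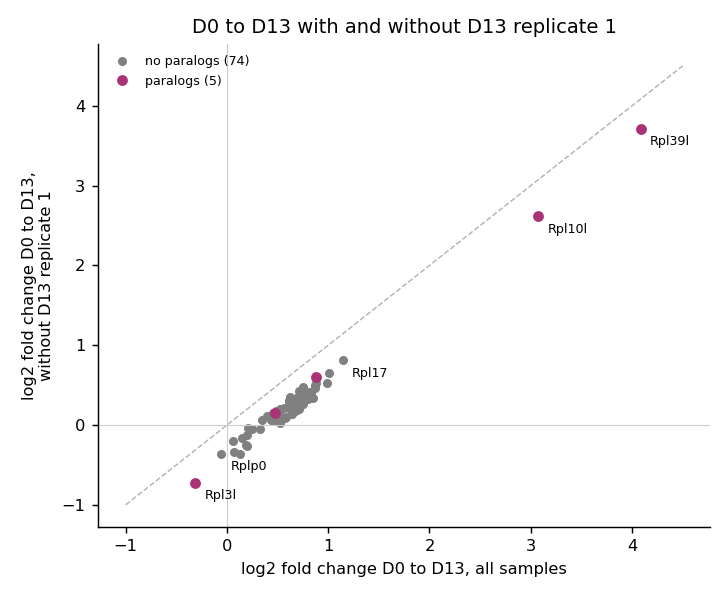
Each point is a member, with its log2 fold change between D0 and D13 in all samples (horizontal axis) and without D13 replicate 1 (vertical axis). The dashed line marks equal values. Points of the 74 members that are no paralogs lie below the line, with a median of 0.63 on the horizontal and 0.21 on the vertical axis, and Rpl39l and Rpl10l lie apart at upper right.

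Rpl17, a large subunit protein at the exit of the peptide tunnel, rose most among members that are no paralogs. Its log2 CPM was 7.10 and 7.19 at D0, 7.36 and 7.17 at D6, then 8.62 and 7.96 at D13. Both replicates of D13 were above all 4 other samples. The log2 fold change between D0 and D13 was 1.14 (SE 0.26, limma adjusted p = 0.0075), and 0.81 without D13 replicate 1 (limma adjusted p = 0.025), and that from D6 to D13 was 1.03 (SE 0.26, limma adjusted p = 0.057). Of the 100-base stretches of its transcript, 77.1% occur in other genes.

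Rps29, a small zinc-binding protein of the small subunit, had a log2 CPM of 9.20 and 8.97 at D0, 9.74 and 9.45 at D6, then 10.45 and 9.74 at D13. D0 was below D6 and D13 without overlap, and the log2 fold change between D0 and D13 was 1.01 (SE 0.29, limma adjusted p = 0.022), or 0.65 without D13 replicate 1 (limma adjusted p = 0.087). Rpl36a, an X-linked gene of the large subunit, had values of 8.75 and 8.20 at D0, 8.99 and 8.72 at D6, then 9.70 and 8.996 at D13. Its D0 and D6 samples overlapped, and the rise from D0 to D13 was 0.87 (SE 0.30, limma adjusted p = 0.046), or 0.52 without D13 replicate 1 (limma adjusted p = 0.21). The other 5 members passed with log2 fold changes of 0.71 (Rpl39) to 0.87 (Rps23 and Rps28), and none of these passed without D13 replicate 1 (limma adjusted p = 0.0995 to 0.18).

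Rplp0 encodes the stalk protein P0, which anchors Rplp1 and Rplp2 on the large subunit, and its transcript was used by the study, with Gapdh, to normalize quantitative RT-PCR. Its log2 CPM was 11.11 and 10.93 at D0, 10.62 and 10.59 at D6, then 11.27 and 10.65 at D13. Both samples of D6 were below both of D0, and the samples of D13 lay on either side of D0. The log2 fold change was -0.42 between D0 and D6 (SE 0.29, limma adjusted p = 0.34) and -0.06 from D0 to D13 (SE 0.29, limma adjusted p = 0.89), the latter being -0.37 without D13 replicate 1 (limma adjusted p = 0.29). Rplp1 had a log2 CPM of 9.94 and 9.98 at D0, 10.16 and 9.98 at D6, then 11.24 and 10.35 at D13, and its log2 fold change was 0.11 between D0 and D6 (SE 0.32, limma adjusted p = 0.84). Both samples of D13 were above the other 4, yet neither Rplp1 (0.83 from D0 to D13, SE 0.32, limma adjusted p = 0.061) nor Rplp2 (0.64, SE 0.32, limma adjusted p = 0.14) passed. Their values were 0.39 (Rplp1, limma adjusted p = 0.23) and 0.13 (Rplp2, limma adjusted p = 0.65) without D13 replicate 1.

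To compare members with each other within samples, each value was also set against the median of the 74 members that are no paralogs in the same sample, which takes the level of D13 replicate 1 out of the comparison. Relative to that median, Rplp0 was 1.89 and 1.75 higher on the log2 scale at D0, 1.18 and 1.32 at D6, then 0.94 and 1.12 at D13. It thus came closer to the median from D0 to D6 and again from D6 to D13 without overlap, though neither step passed (-0.57, limma adjusted p = 0.068, and -0.21, limma adjusted p = 0.54). From D0 to D13 it fell by 0.79 relative to the median member (SE 0.20, limma adjusted p = 0.013). Without D13 replicate 1 the difference was -0.70 (limma adjusted p = 0.070). On this scale, Rpl39l (3.36) and Rpl10l (2.35) were the members that rose from D0 to D13, and Rplp0, Rpl23a, Rps12 and Rpl23 fell. In the same fit 20.6% of all rows rose and 21.6% fell, but rows other than members stayed on the deposited scale.

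Relative to the median member, Rps12, a protein of the small subunit, was at -2.74 and -2.86 on the log2 scale in serum, at -3.12 and -3.24 at D6, and at -3.46 and -3.47 at D13. The 3 days followed each other downward without overlap. It fell by 0.66 from D0 to D13 (SE 0.20, limma adjusted p = 0.026), and by 0.67 without D13 replicate 1 (limma adjusted p = 0.043), the one fall that passed in both. Rpl23a fell by 0.67 (SE 0.20, limma adjusted p = 0.028) and Rpl23, a protein of the large subunit, by 0.59 (SE 0.20, limma adjusted p = 0.043). Without D13 replicate 1 these were -0.53 (limma adjusted p = 0.10) and -0.49 (limma adjusted p = 0.17). On the deposited scale, Rps12, Rpl23a and Rpl23 had log2 fold changes of 0.07, 0.06 and 0.14 from D0 to D13 and did not pass (limma adjusted p = 0.71 to 0.87), so that their falls are relative to the other members. For Rps12 and Rpl23a, 81.4% and 80.0% of the 100-base stretches occur in other genes, and 23.3% for Rpl23.

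Other members at the low end from D0 to D13 were Rpl29 (0.13 on the deposited scale, SE 0.37) and Rpl21 (0.19, SE 0.34), and both turned negative without D13 replicate 1 (-0.36 and -0.25). From D0 to D13, Rpl5 and Rpl11, which bind the p53 regulator Mdm2 when ribosome assembly is disturbed, had log2 fold changes of 0.52 (SE 0.27) and 0.63 (SE 0.29). Rps6, a target of the S6 kinases, was at 0.61 (SE 0.28), Rps19, mutated in Diamond-Blackfan anaemia, at 0.69 (SE 0.32), and Rpsa, also known as the laminin receptor, at 0.52 (SE 0.32). Rpl38 and Rpl24, whose mutations cause the mouse phenotypes Tail short and Belly spot and tail, were at 0.61 (SE 0.27) and 0.68 (SE 0.29), and Rps27a, a fusion with ubiquitin, was at 0.19 (SE 0.25). None of these passed (limma adjusted p = 0.087 to 0.80), and from D0 to D6 the 8 latter lay between -0.16 (Rps27a) and 0.32 (Rpl24). The changes of these 8 from D0 to D13 were smaller without D13 replicate 1, between 0.11 (Rpsa) and 0.31 (Rpl24) for 7 of them and -0.13 for Rps27a, and none passed (limma adjusted p = 0.33 to 0.76).

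Members differed widely in the level recorded. Per kilobase of the transcript paired with RefSeq, the median of the 79 members at D0 was 615 CPM. The median of the 74 members that are no paralogs was 753 CPM, and 64 of these 74 lay within 4-fold of it. The highest were Rpl8 with 2039, Rplp1 with 1995 and Rpl4 with 1914 CPM per kilobase at D0, and the lowest members that are no paralogs were Rps27 with 2.81, Rpl34 with 3.16 and Rpl29 with 40.2. Rps27 had 65 to 186 reads and Rpl34 77 to 213 reads in the 6 samples, against 1684 or more for Rpl29. Reads on sequence shared between genes can be assigned in more than one way, and the part of this in the recorded levels was not tested. Of the 74 members that are no paralogs, 69 share stretches of 100 bases with other annotated genes, with a median of 33.4% of stretches. For 28 members over 50% of stretches were shared, and Rps27 shared 98.4%, though Rpl34 shared 22.5%. Over the 74 members, Spearman's rho between the shared percentage and the level per kilobase at D0 was -0.24, as a description across genes of the same libraries. Exons of 4 members overlap exons of another gene on the same strand, and stretches shared through such an overlap can be part of the percentages above. Exons of 12 members overlap exons of a gene on the other strand. Whether counting used the strand of the stranded library is not given in the sources used here.

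**Figure D4:**
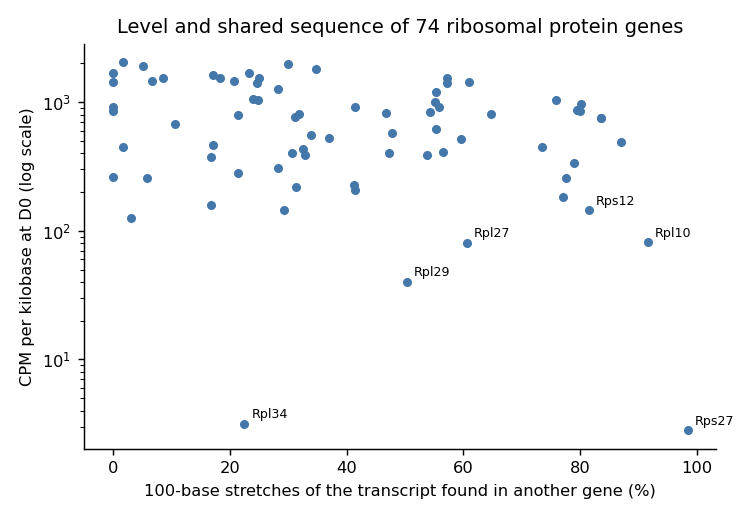
Points are 74 members without the paralogs, with the percentage of 100-base stretches of the transcript that occur in other genes (horizontal axis) and the level at D0 in CPM per kilobase of transcript (vertical axis, log scale). Rps27 and Rpl34 lie at 2.81 and 3.16, at least 10-fold below each other member.

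Genes that act in ribosome assembly were examined next. Among 38 ribosome biogenesis factors, which process and assemble pre-ribosomes in the nucleolus, 4 fell from D0 to D6 (10.2% of all rows) and 13 from D0 to D13 (21.5% of all rows) in limma, and none rose, with a median log2 fold change of -0.55 between D0 and D13. Without D13 replicate 1, 12 fell (15.6% of all rows) and none rose, with a median of -0.60. Leaving out D0 replicate 1 lowered the number that passed in any pair of days. Rrp12, needed for export of both subunits, had a log2 CPM of 7.47 and 7.43 at D0, 6.37 and 6.52 at D6, then 5.90 and 5.97 at D13. Each day lay below the one before without overlap, and the fall from D0 to D13 was -1.51 on the log2 scale (SE 0.20, limma adjusted p = 0.00053). Heatr1 (-1.31, SE 0.26, limma adjusted p = 0.0045) and Tsr1 (-1.25, SE 0.23, limma adjusted p = 0.0033) fell as well.

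Of 15 factors of RNA polymerase I, which transcribes ribosomal RNA, 1 fell from D0 to D6 (10.2% of all rows) and 8 from D0 to D13 (21.5% of all rows), or 6 without D13 replicate 1 (15.6% of all rows), and none rose. The median log2 fold change between D0 and D13 was -0.86, and -0.73 without that replicate. The polymerase subunit gene Twistnb had a log2 fold change of -1.69 (SE 0.29, limma adjusted p = 0.0021), and Taf1c and Taf1a, subunits of the SL1 complex at ribosomal DNA promoters, of -1.46 (SE 0.23, limma adjusted p = 0.0014) and -1.18 (SE 0.24, limma adjusted p = 0.0045). Relative to D0, the sample medians of the 38 biogenesis factors were -0.46 and -0.60 at D13 and those of the 15 polymerase I factors -0.80 and -0.73, whereas those of the 74 ribosomal protein genes were 1.03 and 0.21. Both replicates of D13 thus had the lists on the same sides of D0.

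**Figure D5:**
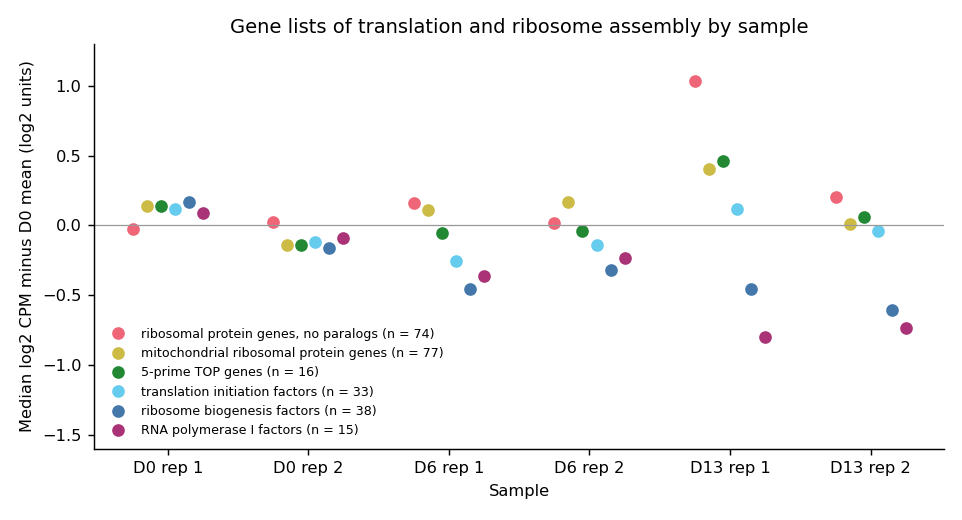
Points show, for each of the 6 samples, the median over a gene list of log2 CPM minus the mean of each gene at D0 (vertical axis, log2 units). Ribosomal protein genes are at 1.03 in D13 replicate 1 and at 0.21 or below elsewhere, while biogenesis factors and RNA polymerase I factors are below -0.2 in all 4 samples in 2i+vitC.

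In other lists of translation, the counts from D0 to D13 stand beside 20.6% of all rows that rose and 21.5% that fell, or 15.5% and 15.6% without D13 replicate 1. Of 16 TOP genes other than ribosomal protein genes, 2 rose from D0 to D13 (Vim, of the cytoskeleton, by 1.61, limma adjusted p = 0.040, and Hnrnpa1, an RNA-binding protein, by 0.90, limma adjusted p = 0.021) and none fell. Without D13 replicate 1, the highest log2 fold change of these 16 genes was 1.62, beside 1.61 in all samples. Their median was 0.06 without it and 0.27 with it. Of 33 initiation factors, 3 rose and 4 fell, and without D13 replicate 1 3 rose and 3 fell, so that both directions stayed below the shares of all rows. Eif5 fell by 1.52 (SE 0.23, limma adjusted p = 0.0012), while Eif2s2 (1.18, SE 0.25, limma adjusted p = 0.0058) and Eif2b5 (1.16, SE 0.23, limma adjusted p = 0.0038), of the machinery that delivers the initiator tRNA, rose. Of 77 mitochondrial ribosomal protein genes, 7 rose and 4 fell, and 0 rose and 5 fell without D13 replicate 1, the median moving from 0.21 to 0.01. Among those that rose with all samples were Mrpl36 (1.13), Mrps16 (1.11) and Mrpl57 (1.10), which lay at 0.74, 0.77 and 0.79 without this replicate.

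Of 15 genes of the mTOR pathway, which promotes ribosome production, 3 rose and 3 fell from D0 to D13, a share close to that of all rows (20.6% and 21.5%), and 2 rose and 3 fell without D13 replicate 1 (15.5% and 15.6% of all rows). Rps6kb1, the S6 kinase, had a log2 CPM of 7.11 and 7.09 at D0, 6.06 and 6.25 at D6, then 4.76 and 5.26 at D13. It fell at each step without overlap, by 2.09 in all (SE 0.23, limma adjusted p = 0.00025), though the step from D6 to D13 (limma adjusted p = 0.035) did not pass without D13 replicate 1 (limma adjusted p = 0.12). Larp1, which binds TOP mRNAs, fell by 1.32 (SE 0.25, limma adjusted p = 0.0035), and Ddit4, an inhibitor of the pathway, rose by 1.76 (SE 0.23, limma adjusted p = 0.00053). Of 12 p53 targets, 4 rose and 2 fell from D0 to D13 (20.6% and 21.5% of all rows), and 3 rose and none fell without D13 replicate 1 (15.5% and 15.6% of all rows). Cdkn1a rose by 3.04 (SE 0.19, limma adjusted p = 2.2e-05) and Bbc3 by 1.14 (SE 0.25, limma adjusted p = 0.0065), and Perp fell by 1.45 (SE 0.46, limma adjusted p = 0.034), a call that was lost without D13 replicate 1 (-1.26, limma adjusted p = 0.17).

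Markers of other cell types moved with the days as well. The summed level of 3 detected fibroblast markers of 8 listed was 29.7 and 10.1 CPM at D0 and 4.86 to 5.62 CPM later, with Col3a1, Postn, Dcn, Lum and Twist2 not listed in the files. Col1a1 made up 18.55 and 3.65 CPM of these sums at D0. Thy1 was at 6.50 and 3.41 CPM at D0, at 0.983 and 1.65 CPM at D6, and at 2.79 and 3.46 CPM at D13. The 4 detected markers of primed epiblast and early mesoderm of 7 listed summed to 1078 and 908 CPM at D0 and 79.0 to 123 CPM later. Of these sums, Dnmt3b made up 891 and 736 CPM at D0 and 51.4 to 105 CPM later. Krt18, Otx2 and Pou3f1 were also lower in all later samples than at D0. The 3 detected two-cell-like markers of 6 summed to 8.34 and 10.4 CPM at D0 and to 0.260 and 0.552 CPM at D13. Those of primitive endoderm (6 detected of 9) summed to between 414 and 536 CPM over all samples, of which Sparc made up 173 to 435 CPM. Among them Col4a1 was at 81.7 and 126 CPM at D0 and at 2.08 and 3.07 CPM at D13, and Dab2 at 15.9 and 16.8 CPM at D0 and at 1.02 CPM or less later. The sum of trophoblast markers (4 of 7) ranged from 45.7 to 101 CPM. These sums do not show whether such cells were present, and the part of cell composition in the levels of the ribosomal protein genes was not tested.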

How the data were processed

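The 6 RNA-seq samples of J1 ES cells were grouped by the day of conversion in the labels (D0, D6 and D13), 2 each. Poly(A) libraries were read from both ends, and the authors aligned these reads to mm10 with TopHat2 2.0.6 and RefSeq, counted them with HTSeq 0.6.1, combined them with transposon counts (Bowtie 1.0.0), applied TMM normalization and deposited voom log2 CPM. How reads with several mapping sites were counted for genes is not given in the sources used here, which affects members with pseudogenes. 

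The deposited log2 values were tested with limma 3.58.1 (R 4.3.3), with a mean for each day, a mean-variance trend, all 6 samples and no block, and Benjamini-Hochberg adjustment over all 12928 rows. P-values measure the spread between these samples only. Values lay on whole reads (tolerance 0.02 reads), so that 3 reads correspond to 0.034 to 0.042 CPM. These reads served for depth and shares. The fit was tested on simulated reads with known changes from D0 to D13. It called 18% of rows changed by 0.7 on the log2 scale and 44% of those changed by 1.0. Of rows changed by 2.0 or 3.0 it called 100%, and of unchanged rows 0.031%. Changes of 1.0 or less can thus be missed, and a member that did not pass is not shown to be unchanged.

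Members were placed in GENCODE vM21 (GRCm38). Shared sequence was counted as stretches of 100 bases. Promoters came from RefSeq (GRCm38.p6).

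Named were the 6 members with the highest and the 6 with the lowest fold change from D0 to D13, the 3 highest and 3 lowest at each step (at least 100 reads on average), the paralogs and parents, a fixed set with known roles, and up to 3 genes per other list. Other genes are named as those passing a test, chosen after their values were seen. Ribosomal protein genes with names outside the rule are not reported here. Members and lists were chosen with earlier results of these data known. Alternatives covered scaling, a filter on low counts, voom weights, no trend, thresholds, a replicate block, only the days compared and each sample left out. Centring on the median member, the RefSeq transcript length and the 50-base window were added after seeing the data. Python 3.11.15, numpy 2.4.6, pandas 2.3.3, scipy 1.17.1 and matplotlib 3.10.9 were used.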

Additional observations from a re-analysis of the deposited data

How the results depend on the processing

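From D0 to D6, 2 or 3 members passed under each setting tried, also when a sample was left out. From D6 to D13 (0 members), 7 passed at an unadjusted p, 1 with the replicate block and 0 to 24 when a sample was left out. From D0 to D13 (11 members), 5 passed in a fit of only both days, 4 without trend, 3 at an adjusted p under 0.01, 27 at an unadjusted p, 4 with a 2-fold and 2 with a 4-fold minimum, 6 when centred on the median member (2 up, 4 down), 3 when also without D13 replicate 1, and 3 to 65 when a sample was left out, the highest without D13 replicate 2. The lowest, 3, was reached without D13 replicate 1 or D0 replicate 2, and each of the 6 samples moved this count by over 1.5 times. Total reads or median of ratios scaling, scaling without members, a filter of 10 reads and voom weights kept the member counts within 1.5 times. For D6 against the mean of D0 and D13 (2 members), 1 passed at an adjusted p under 0.01, 0 with a 4-fold minimum and 1 to 2 when a sample was left out. Counting genes of the other lists that passed from D0 to D13 or between other days, leaving out a sample gave 2 to 4 TOP genes (2 in all samples) and 5 to 11 initiation factors (7), both highest without D13 replicate 2, 8 to 18 biogenesis factors (13, lowest without D0 replicate 1), 3 to 6 p53 targets (6, lowest without D0 replicate 2) and 6 to 23 mitochondrial ribosomal protein genes (11), highest without D13 replicate 2 and lowest without D0 replicate 2 or either replicate of D6. Without trend, 3 p53 targets and 7 mitochondrial genes passed. Replicate differences correlated over genes at -0.13 (D0 and D6), 0.14 (D0 and D13) and 0.33 (D6 and D13). Whether replicate numbers pair the samples is not given in the labels. With the replicate block, 21 members rose from D0 to D13, beside 2944 of all 12928 rows. From D6 to D13, 422 of all rows rose and 829 fell with the block, against 180 and 360 without it. Between any pair of days, 18 mitochondrial genes passed with the block. Without the 3 most abundant members, the share of reads was 4.67% at D0 and 5.04% at D6. The median level at D0 was 526 CPM per kilobase of exon union, 560 with the longest coding transcript and 615 with the transcript paired with RefSeq. No fold change of a named gene that passed turned its direction. With 2 replicates per day, 1 sample can decide a call, and reads on members with pseudogenes are uncertain. Counts given here without the share of all rows describe how calls depend on settings, not how members differ from other genes.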
